A study of Mus musculus with 6 samples.

Results

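The BCL2 family genes measured here are the pore-forming effectors Bax and Bak1, the BH3-only genes Bbc3, Pmaip1, Bmf, Bid and Bcl2l11, and the anti-apoptotic genes Bcl2, Bcl2l1 and Mcl1. These 10 genes, of 18753 genes that the arrays name, were taken by symbol, and every non-control probe whose RefSeq identifier maps to one of them was used, 18 probes in all. They were followed in mouse cells of strain 129/Ola, differentiated from embryonic stem cells on gelatin in serum-free N2B27 medium and collected at day 3. The 2 groups were given, for 24 h, either the solvent DMSO or TSA (trichostatin A), which blocks histone deacetylases, and each had 3 samples from independent experiments. The concentration of TSA, the cell line and its number of clones are not given in the sources used here. Each of the 6 RNA samples had an Agilent array of its own, read in a single colour, and the pair of arrays of an experiment shared 1 of 3 slides. DMSO arrays always sat at position 3 of the slide and TSA arrays at position 4, so these effects cannot be told apart.

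Proteins of this family decide whether mitochondria release cytochrome c and thereby start the caspase cascade of intrinsic apoptosis. BAX and BAK1, once activated, assemble into pores in the outer mitochondrial membrane, while BCL2, BCL-XL (from Bcl2l1) and MCL1 hold them in check. BH3-only proteins are the stress sensors that either activate the effectors directly or occupy the groove of the anti-apoptotic proteins, and early embryonic cells are known to be poised close to this threshold. Inhibitors of histone deacetylases are known to alter the expression of several family members in tumour cells.

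The promoters of Bcl2 and Bmf are shown because Bcl2 was the anti-apoptotic member with lower signals in TSA by every probe, and Bmf the BH3-only member with several probes and higher signals by every one. Each line gives 250 bases before a transcription start of the gene in RefSeq, build GRCm38.p6 (for Bmf, the most upstream of 3 starts), read 5′ to 3′ on the gene's strand, at chr1:106714291-106714540 (minus strand) for Bcl2 and chr2:118549687-118549936 (minus strand) for Bmf. Capitals mark GC boxes (GGGCGG or its complement CCGCCC) and CCAAT boxes (CCAAT or ATTGG), counted on both strands with overlapping matches allowed.
Bcl2 upstream: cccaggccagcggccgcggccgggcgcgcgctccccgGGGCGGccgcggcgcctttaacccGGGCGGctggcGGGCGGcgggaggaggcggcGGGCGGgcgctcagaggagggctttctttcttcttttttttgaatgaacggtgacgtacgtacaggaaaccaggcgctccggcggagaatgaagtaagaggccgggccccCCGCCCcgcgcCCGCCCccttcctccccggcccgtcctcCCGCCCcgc
Bmf upstream: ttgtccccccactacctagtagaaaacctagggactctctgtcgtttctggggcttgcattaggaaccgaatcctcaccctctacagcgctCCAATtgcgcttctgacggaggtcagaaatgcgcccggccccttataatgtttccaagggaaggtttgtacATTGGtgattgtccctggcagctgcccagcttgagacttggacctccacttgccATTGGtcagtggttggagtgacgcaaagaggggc

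The Bcl2 window holds 7 GC boxes and 36 CpG pairs, and 0 CCAAT boxes. Of 32851 windows of the same length upstream of RefSeq starts, 32.7% hold a GC box, 0.411% hold as many as Bcl2, and the median window has 6 CpG pairs. The Bmf window holds 0 GC boxes, 3 CCAAT boxes (a motif present in 33.8% of windows) and 8 CpG pairs. The windows of the other Bmf starts hold fewer, with 0 and 1 CCAAT boxes and 3 and 5 CpG pairs. Which start these cells use was not tested. Among 16 windows of 9 members in the table, 9 hold a GC box, and one of Bbc3 holds 7 as well. Neither printed window holds TATAAA or its complement, which 12.4% of all windows do. The matches describe sequence alone.

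All 18 member probes lay well above background on all 6 arrays, none was saturated, and all 10 genes entered the test. Levels below are log2 of the processed signal minus the 75th percentile of the array, so that 0 is the brightness of an upper-quartile probe of that array. Differences are TSA minus DMSO on that scale, with the standard error of a limma fit and n = 3 arrays per group. A gene with several probes is represented by the one with the highest mean. For the members, the other probes are given beside it. Every other gene is given by that probe alone, also where it has several. The 75th percentile was 632 to 926 intensity units on the other 5 arrays and 311 on TSA replicate 2, whose added control RNAs stood 3.00 above it on the log2 scale, against 1.03 to 1.60 elsewhere. That array stands apart, so each member's difference on slide 2 is given separately. Over all tested genes the median difference was -0.028, 0.30 and 0.027 on slides 1, 2 and 3.

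No member passed the test. With limma and Benjamini-Hochberg adjustment over all probes, 0 of 10 members were called at an adjusted p under 0.05, where 1.41% of 14529 tested genes were, 1.36% toward TSA and 0.0551% toward DMSO. With the slide as a block the count was again 0, against 3.34% of all tested genes. At an unadjusted p under 0.05 there were 2 members, Bid and Bcl2, or 20%, where 14.9% of all tested genes were. By probe there were 3 of 18 (Bid and both Bcl2 probes), where 12% of all tested probes were. The means were higher in TSA for 5 members and lower for 5, where 58.1% of all tested genes had a higher mean. The median difference over the members was 0.026, against 0.085 over all tested genes.

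**Figure D1:**
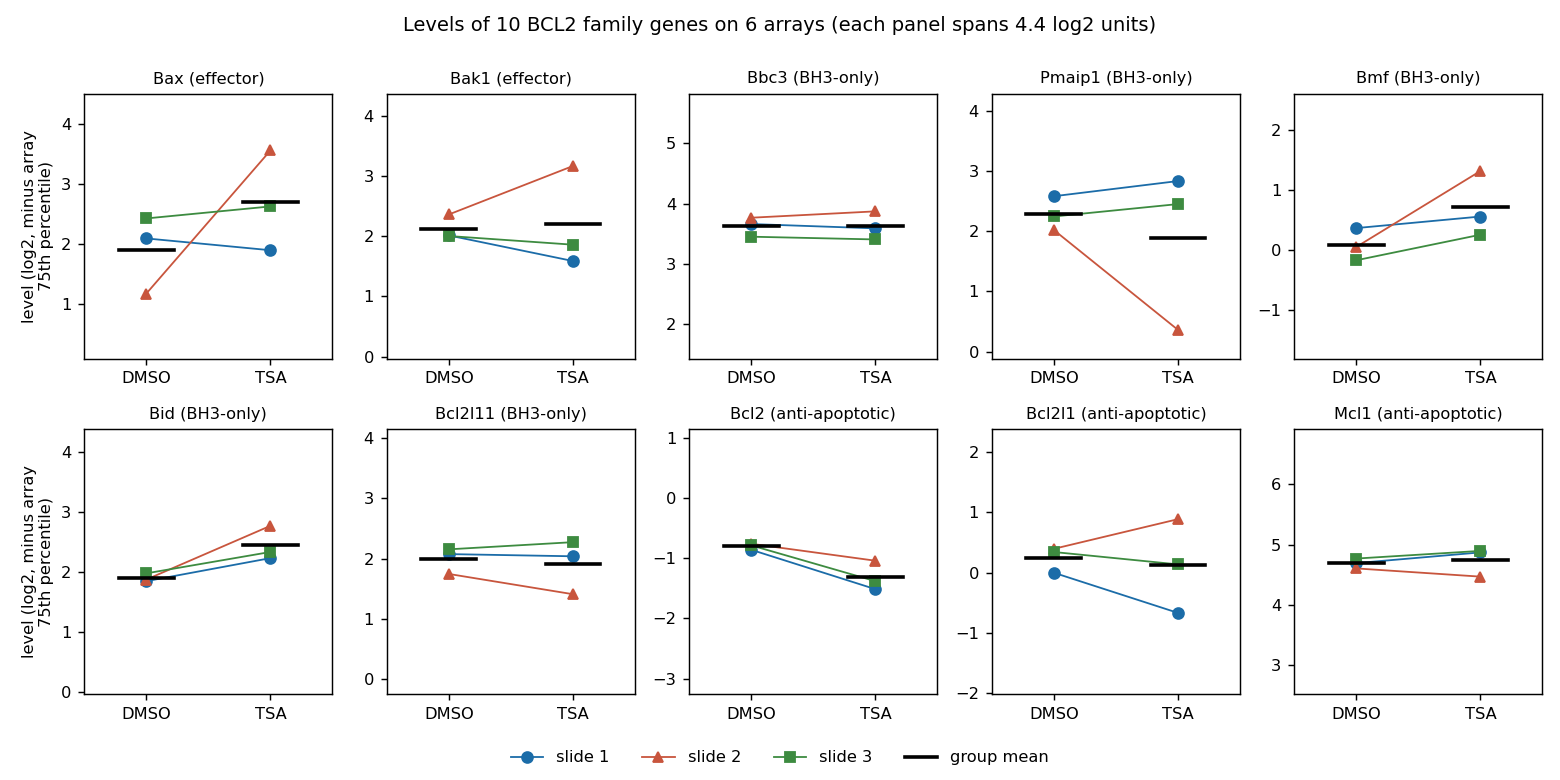
Level of each member (log2 of the processed signal minus the 75th percentile of the array, y axis) in DMSO and TSA, by the probe that represents the gene. Points are arrays, lines join the arrays of a slide and black bars are group means. Bid and Bcl2 have groups that do not overlap, and slide 2 runs apart for Bax and Pmaip1.

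Among the effectors, Bax had the difference of largest size among the representing probes, and it came from slide 2. Bax was at 2.09, 1.17 and 2.42 in DMSO replicates 1, 2 and 3 and at 1.90, 3.55 and 2.62 in TSA replicates 1, 2 and 3. The lowest and the highest level both came from slide 2, and the groups overlapped. The difference was 0.79 ± 0.50 (adjusted p = 0.606, and 0.434 with the block), with a 95% interval from -0.41 to 2.0. On slides 1, 2 and 3 it was -0.20, 2.38 and 0.20. With both arrays of slide 2 left out it was 0.0016 ± 0.30 (adjusted p = 0.999). The Bax probe is printed in 10 spots on each array, and the SD over its spots was 0.028 to 0.048. The part of sample or array in the slide 2 values was not tested.

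Bak1, the other effector, showed no shift that slides shared. Its brighter probe was at 2.02, 2.36 and 2.0 in DMSO and 1.59, 3.17 and 1.86 in TSA. The slide 2 arrays were the highest of either group. The difference was 0.079 ± 0.43 (adjusted p = 0.948, interval -0.94 to 1.10), and on slides 1, 2 and 3 it was -0.43, 0.81 and -0.14. The dimmer Bak1 probe gave 0.35 ± 0.35 (adjusted p = 0.709) and was higher in TSA on all 3 slides, so the probes disagreed in sign on slides 1 and 3. Median centring of the arrays turned the sign of the brighter probe, to -0.015.

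The BH3-only genes did not share a direction: 2 had a higher mean in TSA and 3 a lower one, with a median of -0.0040. Bid, whose protein is cleaved by caspase-8 and links death receptors to mitochondria, had the smallest p of the genes by their representing probe. It was at 1.85, 1.88 and 1.98 in DMSO and at 2.23, 2.77 and 2.34 in TSA. Every TSA array was above every DMSO array, a separation toward TSA that 16.4% of all tested genes show. The difference was 0.54 ± 0.22, or 1.46-fold (adjusted p = 0.402, and 0.242 with the block), and it was 0.38, 0.89 and 0.36 on slides 1, 2 and 3. Without slide 2 it was 0.37 ± 0.15 (adjusted p = 0.307).

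Bmf, which senses loss of attachment and binds dynein light chains, had 3 probes, each higher in TSA on all 3 slides. Its brightest probe was at 0.36, 0.047 and -0.17 in DMSO and at 0.55, 1.31 and 0.25 in TSA. The groups overlapped, as DMSO replicate 1 was above TSA replicate 3. The difference was 0.63 ± 0.33 (1.54-fold, adjusted p = 0.532, and 0.284 with the block). The dimmer probes gave 0.33 ± 0.25 (adjusted p = 0.649) and 0.64 ± 0.28 (adjusted p = 0.462), and the latter was the one whose groups did not overlap. On slides 1, 2 and 3 the brightest probe differed by 0.19, 1.26 and 0.43, so slide 2 was again the widest. Without slide 2 the probes gave 0.31, 0.12 and 0.29. Under normexp with quantile normalization they gave 0.53, 0.15 and 0.22. The last of these, whose groups did not overlap, was dim, at 41.6 to 78.5 intensity units. Higher levels on all 3 slides, as Bid and Bmf had, were found in 32.6% of all tested genes.

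Bbc3, which encodes PUMA, a p53 target and potent killer, had the smallest spread between slides among the representing probes. It was at 3.66, 3.76 and 3.45 in DMSO and 3.59, 3.87 and 3.40 in TSA. The groups overlapped. The difference was -0.0040 ± 0.22 (adjusted p = 0.995), with a 95% interval from -0.53 to 0.52. On slides 1, 2 and 3 it was -0.072, 0.11 and -0.046.

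Pmaip1, which encodes NOXA, a p53 and stress target that binds MCL1, was low on 1 array. It was at 2.58, 2.02 and 2.25 in DMSO and at 2.84, 0.36 and 2.45 in TSA. The groups overlapped, and TSA replicate 2 stood at -2.28 relative to the mean of the other TSA arrays. Its unscaled signal was 399 intensity units against 4789 and 4849 on TSA replicates 1 and 3. The difference was -0.40 ± 0.64 (adjusted p = 0.810), with -1.66 on slide 2 and 0.25 and 0.21 on slides 1 and 3. Without TSA replicate 2 it was 0.36, with the opposite sign (adjusted p = 0.486). The direction of Pmaip1 therefore rested on that array.

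Bcl2l11, which encodes BIM, an activator of BAX that FOXO factors induce, gave probes of opposite sign. Its brighter probe was at 2.07, 1.74 and 2.15 in DMSO and 2.04, 1.41 and 2.27 in TSA, and the slide 2 arrays were the lowest of both groups. The difference was -0.085 ± 0.29 (adjusted p = 0.914). The dimmer probe, assigned to the same transcript, gave 0.29 ± 0.26 (adjusted p = 0.685) and was higher in TSA on all 3 slides.

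**Figure D2:**
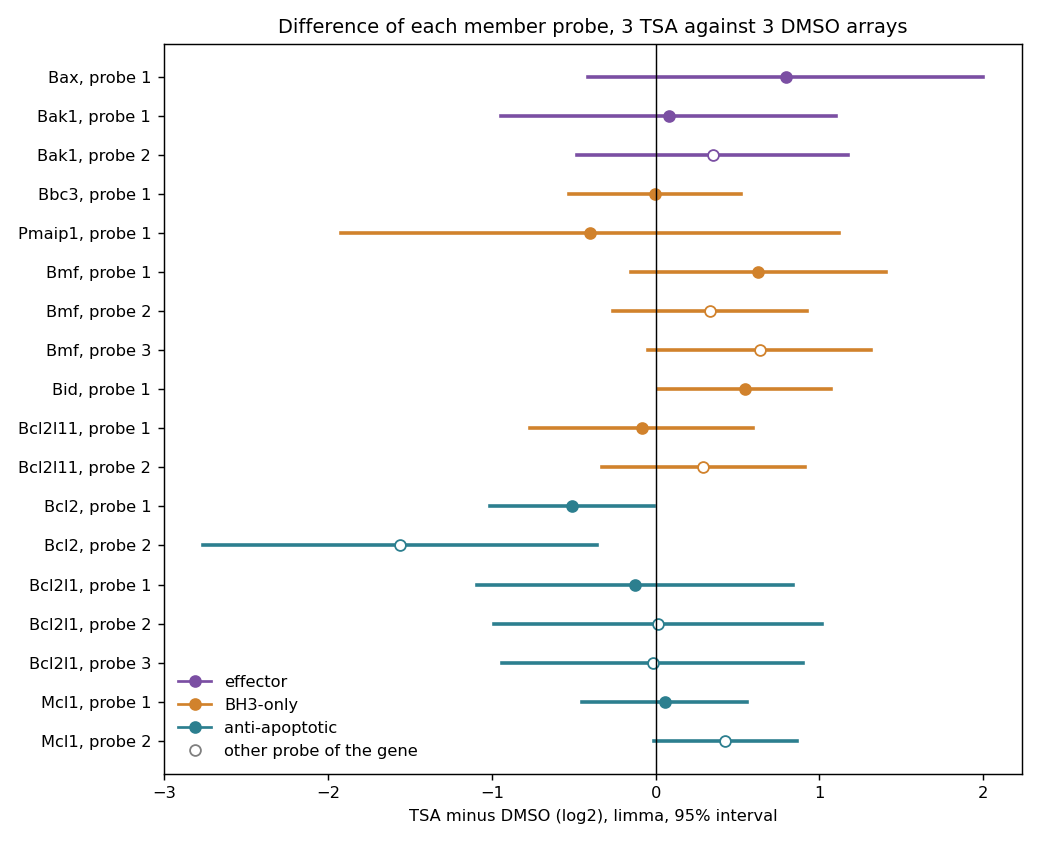
Difference TSA minus DMSO (log2, x axis) of all 18 member probes with the 95% interval of the limma fit, coloured by role. Filled points represent the gene and open points are its other probes. The intervals of Bid and of both Bcl2 probes lie on one side of 0 before adjustment, and none of the 18 probes passed after it.

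Among the anti-apoptotic genes, Bcl2 was lower in TSA by both of its probes, on every slide. The probe assigned to the transcript NM_177410 was at -0.86, -0.76 and -0.78 in DMSO and at -1.51, -1.04 and -1.38 in TSA. All TSA arrays lay below all DMSO arrays, as in 8.29% of all tested genes. The difference was -0.51 ± 0.21 (1.42-fold higher in DMSO, adjusted p = 0.409, and 0.234 with the block), and -0.66, -0.28 and -0.60 on slides 1, 2 and 3.

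The Bcl2 probe assigned to NM_009741, printed in 10 spots, showed a larger difference in the same direction. Its processed signal was 260, 318 and 535 intensity units in DMSO and 163, 22.7 and 225 in TSA. Scaled, it was at -1.28, -1.04 and -0.79 in DMSO and at -2.04, -3.78 and -1.97 in TSA, again without overlap. The difference was -1.56 ± 0.50 (2.95-fold higher in DMSO, adjusted p = 0.266, and 0.139 with the block), the lowest adjusted p of the 18 member probes. On slides 1, 2 and 3 it was -0.76, -2.74 and -1.18. Under normexp with quantile normalization this probe gave -0.97 ± 0.23 (adjusted p = 0.160). The SD over the spots of an array was 0.044 to 0.13. Lower levels on all 3 slides were found in 21.4% of all tested genes.

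The probes of Bcl2 differed most on TSA replicate 2. Within an array, the 10-spot probe minus the other was -0.42, -0.28 and -0.0075 in DMSO and -0.53, -2.74 and -0.59 in TSA. The TSA mean minus the DMSO mean of this ratio was -1.05, most of it from slide 2. An exact two-sided permutation test over arrays gave p = 0.1. That is the lowest p that 3 against 3 arrays can reach, so the test cannot decide. Without slide 2 the probes came closer, at -0.63 ± 0.15 (adjusted p = 0.143) and -0.97 ± 0.21 (adjusted p = 0.123). With limma's array weights both probes passed, at -0.62 ± 0.13 (adjusted p = 0.0411) and -1.0 ± 0.22 (adjusted p = 0.0423). In that fit 962 of 14529 tested genes rose and 170 fell. Both probes also passed with slide 2 left out and the slide as a block (adjusted p = 0.0438 and 0.0342), a fit of 2 slides chosen after the data were seen. There 1587 of all tested genes rose and 368 fell, so passing was not particular to Bcl2 in either fit. Averaged over both probes, the Bcl2 difference was -1.04.

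**Figure D3:**
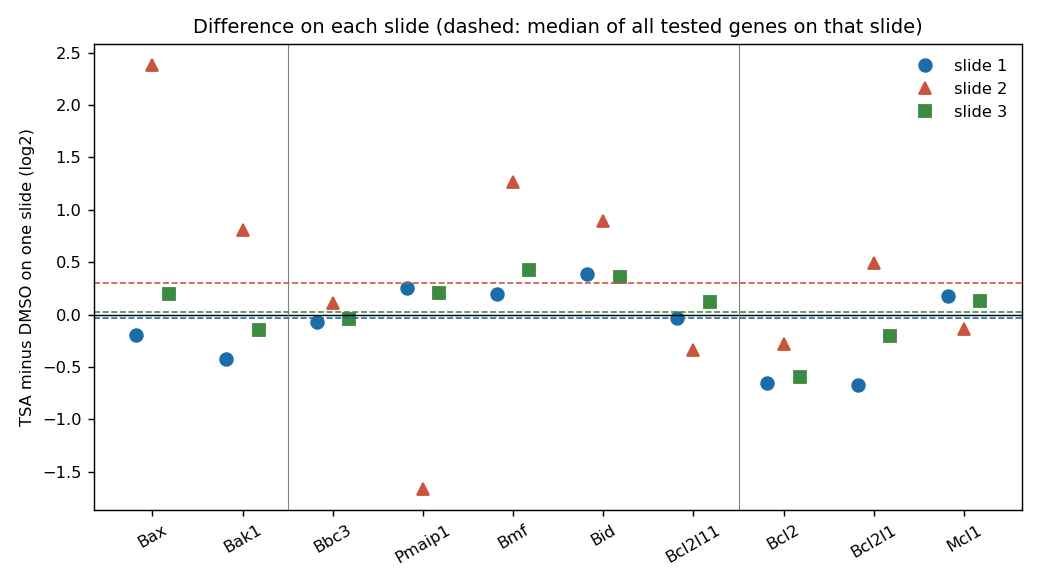
Difference TSA minus DMSO on each slide (log2, y axis) for the representing probe of each member, ordered as effectors, BH3-only and anti-apoptotic genes. Dashed lines mark the median of all tested genes on that slide, which was 0.30 on slide 2. Bid and Bmf lie above 0 and Bcl2 below 0 on all 3 slides.

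Bcl2l1, whose main product BCL-XL guards mitochondria of many embryonic cells, followed no common direction. Its 10-spot probe was at -0.0029, 0.39 and 0.34 in DMSO and at -0.67, 0.89 and 0.14 in TSA. It was lower in TSA on slides 1 and 3 and higher on slide 2. The difference was -0.13 ± 0.40 (adjusted p = 0.908), and the other probes gave 0.013 ± 0.42 and -0.019 ± 0.39. All 3 probes had the same signs slide by slide, from -0.67 to -0.46 on slide 1, from 0.49 to 0.74 on slide 2 and from -0.24 to -0.15 on slide 3.

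Mcl1, whose short-lived product is needed from the earliest embryo onward, gave 2 readings. The probe with the higher mean was at 4.69, 4.60 and 4.77 in DMSO and 4.87, 4.47 and 4.89 in TSA, and its difference was 0.056 ± 0.21 (adjusted p = 0.923). The other probe, assigned to the same transcript, was at 3.14, 3.09 and 3.14 in DMSO and 3.64, 3.47 and 3.54 in TSA. Its TSA arrays were all above its DMSO arrays, with a difference of 0.43 ± 0.18 (adjusted p = 0.433, and 0.269 with the block). It was 0.50, 0.38 and 0.40 on slides 1, 2 and 3, the closest agreement between slides of any member probe. Relative to the mean of the other TSA arrays, TSA replicate 2 stood at -0.42 by the first probe and at -0.11 by the second. Averaged over both probes the Mcl1 difference was 0.24, and median centring turned the sign of the first probe, to -0.037.

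The pro-apoptotic members had a slightly higher median than the anti-apoptotic ones. The median difference was 0.079 for the 7 pro-apoptotic genes and -0.13 for the 3 anti-apoptotic genes, which puts them 0.21 log2 units apart. Slide by slide the medians were 0.62, 0.94 and 0.41 apart on slides 1, 2 and 3, each time with the pro-apoptotic median higher. The medians fell on different genes from slide to slide. Over all tested genes the median difference was 0.085, near that of the pro-apoptotic genes. On slides 1, 2 and 3 the pro-apoptotic median was -0.036, 0.81 and 0.20, against -0.028, 0.30 and 0.027 over all tested genes. The members were chosen with results known, so the contrast of pro- with anti-apoptotic genes has no test.

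Of the genes most like Bid over the 6 arrays, outside the lists used here, S100a16, a calcium-binding protein, had a Pearson correlation of 0.999. The predicted gene Gm11127 and the MHC class I gene H2-Bl each had 0.997. These are the highest correlations among all tested genes over only 6 arrays that share slides and treatment, and are a description. S100a16 differed by 1.27 ± 0.36 (adjusted p = 0.209), H2-Bl by 0.90 ± 0.30 and Gm11127 by 0.84 ± 0.27 (adjusted p = 0.274 for both).

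In the wider apoptosis pathway no gene passed the test either. Of 82 tested genes in 7 lists around the family, 0 rose and 0 fell, against 1.36% and 0.0551% of all tested genes. At an unadjusted p under 0.05 there were 14, a share near the 14.9% of all tested genes. With the slide as a block 1 gene rose, where 3.19% of all tested genes did, and 0 fell. That gene was Naip5, an inflammasome sensor of the inhibitor of apoptosis family, at -4.30, -3.76 and -4.38 in DMSO and -3.15, -2.49 and -3.10 in TSA (1.23 ± 0.29, adjusted p = 0.125, and 0.0448 with the block). Under normexp with quantile normalization the Naip5 difference was 0.47. Its probe may also bind its close relatives.

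Of 13 tested genes in a list of other BCL2 family and BH3-like genes, 4 had a higher and 9 a lower mean, with a median of -0.10. This list is wider than the family and includes Bnip1, Bnip2, Bnip3, Bnip3l and Moap1. Bnip3, a mitophagy receptor induced by hypoxia, was at 3.65, 3.57 and 4.10 in DMSO and 2.37, 2.41 and 3.33 in TSA (-1.07 ± 0.33, adjusted p = 0.239, and 0.0683 with the block). Bcl2l14, a relative with a BH3-like region, gave 0.64 ± 0.19 (adjusted p = 0.238) and the BH3-only gene Hrk gave -0.62 ± 0.25 (adjusted p = 0.390). Under normexp with quantile normalization the differences of Bcl2l14 and Hrk were smaller, at 0.37 and -0.20.

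Downstream of the mitochondria, the 16 genes of the apoptosome, caspase and mitochondrial list were balanced, with 8 higher and 8 lower means and a median of 0.042. Dffb, the nuclease of the DNA ladder, was at -1.51, -1.33 and -1.71 in DMSO and at -2.04, -1.49 and -2.19 in TSA (-0.39 ± 0.26, adjusted p = 0.616), and its groups overlapped. Of 6 tested inhibitors of apoptosis, Naip5 included, 5 had a lower mean, with a median of -0.24.

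The death receptor list, whose branch reaches the family through BID, had 7 higher and 3 lower means among 10 tested genes and a median of 0.20. The receptor Fas was at -4.34, -3.72 and -3.42 in DMSO and at -2.61, -2.44 and -2.71 in TSA (1.24 ± 0.28, adjusted p = 0.119). The adaptor Tradd was at -0.16, 0.51 and 0.31 in DMSO and at 1.22, 2.02 and 1.21 in TSA (1.26 ± 0.31, adjusted p = 0.149, and 0.0575 with the block). Cflar, which encodes the caspase-8 inhibitor cFLIP, gave -1.07 ± 0.38 (adjusted p = 0.327), with -1.93 on slide 2 and -0.71 and -0.57 on slides 1 and 3. Under normexp with quantile normalization the Fas difference was 0.49. With array weights Fas and Tradd passed the test (adjusted p = 0.0358 and 0.0292), in a fit where 962 of 14529 tested genes rose and 170 fell.

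Upstream, p53 and its targets, which include Bax, Bbc3 and Pmaip1 outside this list, had a median of -0.0081 over 20 tested genes, 9 higher and 11 lower. Cdkn1a, whose product p21 halts the cell cycle, differed by 0.66 ± 0.27 (adjusted p = 0.415), Pidd1, a death domain scaffold, -0.56 ± 0.21 (adjusted p = 0.341), and Mdm2, the ubiquitin ligase of p53, -0.67 ± 0.39 (adjusted p = 0.575). Mdm2 was at -1.36 on slide 2 and -0.33 on slides 1 and 3. Among 10 tested transcription regulators of BH3-only genes, 7 had a lower mean, with a median of -0.25. Trib3, a pseudokinase of the stress response, was at 2.29, 2.06 and 2.30 in DMSO and at 0.96, 1.36 and 1.09 in TSA (-1.08 ± 0.21, adjusted p = 0.0812, and 0.0770 with the block). It passed under normexp background correction (adjusted p = 0.0431), with array weights (adjusted p = 0.00633) and without TSA replicate 2 (adjusted p = 0.0295). Of 14529 tested genes, 11, 170 and 29 fell in these fits. Trp73, a p53 relative, gave -0.95 ± 0.31 (adjusted p = 0.271, and 0.0677 with the block) and Ddit3, the stress factor CHOP, -0.61 ± 0.24 (adjusted p = 0.376).

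Factors that set the turnover or location of the family's proteins had a median of -0.16 over 7 tested genes. Dynll2, the dynein light chain that BMF binds, gave 0.64 ± 0.28 (adjusted p = 0.451), and the MCL1 ubiquitin ligase Huwe1 gave -0.32 ± 0.23 (adjusted p = 0.632). Usp9x, which stabilises MCL1, gave -0.66 ± 0.52 (adjusted p = 0.662), with -1.79 on slide 2 and -0.10 without that slide.

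**Figure D4:**
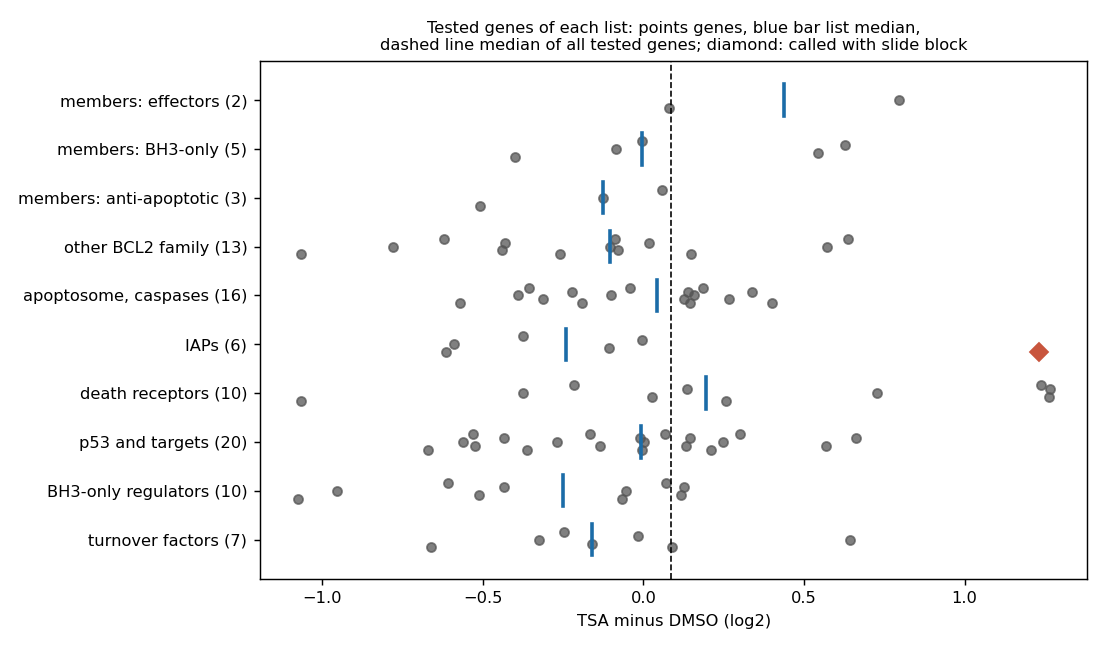
Difference TSA minus DMSO (log2, x axis) of each tested gene, by list, with the number of tested genes in parentheses. Blue bars are list medians, the dashed line is the median of all tested genes (0.085) and the diamond is Naip5, the gene called with the slide as a block.

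The cell type of the samples was checked against fixed markers. All 6 epiblast and all 6 early neural markers lay well above background on all 6 arrays. So did all 6 primitive streak and endoderm and all 6 fibroblast markers, so transcripts of each of these sets were present. This criterion therefore does not single out an identity. The neural marker Sox1 was dim, at -4.85, -4.16 and -4.97 in DMSO and -4.50, -3.85 and -4.86 in TSA. The summed signal of the 6 fibroblast markers, in units of the array's 75th percentile, was 5.42 to 8.04 in DMSO and 10.9 to 15.3 in TSA, and that of the 6 primitive streak and endoderm markers 4.82 to 26.6 and 9.88 to 34.9. The corresponding ranges were 69.0 to 113 and 59.9 to 91.4 for epiblast markers, 10.7 to 12.6 and 9.01 to 11.0 for early neural markers, and 0.258 to 0.394 and 0.303 to 0.574 for the 5 blood markers that were tested, of 6. The sums add unlogged signals, so the brightest marker of a set weighs most. Among fibroblast markers that was Thy1, with a log2 mean of 2.14 in DMSO, and the next was Col1a2, at -0.21. The brightest epiblast marker was Dnmt3b (5.71 in DMSO) and the brightest neural one Nes (2.92). Within every slide the fibroblast, streak and endoderm, and blood sums were higher in TSA, and the epiblast and neural sums lower. Single markers did not all follow their sum. Of the neural markers 3 had a higher and 3 a lower mean in TSA, and of the epiblast markers 2 and 4. Zfp42 (epiblast, 0.56), Sox1 (0.25) and Hes5 (neural, 0.54) were higher in TSA on all 3 slides. Foxa2 (endoderm, -0.50) was lower on all 3, while 5 of the streak and endoderm markers had a higher mean. On slides 1, 2 and 3 the streak and endoderm sum was 4.82, 26.6 and 6.69 in DMSO and 10.9, 34.9 and 9.88 in TSA. The epiblast sum was 113, 101 and 69.0 in DMSO and 91.4, 84.6 and 59.9 in TSA. The single fibroblast markers differed by between 2.73 (Col1a1) and -0.91 (Dcn), 5 of the 6 upward, with Thy1 at 0.88, Col3a1 at 0.074 and a median of 1.13. No marker of any list passed without the block, and 0 fell with it. With the block Mixl1, Col1a2 and Gata1 rose (adjusted p = 0.0311, 0.0474 and 0.0363), as did 3.19% of all tested genes. Gata1 and Mixl1 were dim in DMSO, at -5.60, -4.76 and -5.89 and at -5.30, -3.47 and -6.14. Only 2 of the 3 DMSO arrays had Gata1 well above background. Pax6 differed by -1.21 ± 0.24 (adjusted p = 0.0816, and 0.0572 with the block). Ptprc, the defining blood marker, was not tested, since it was not well above background on enough arrays. In bulk RNA, fewer cells of a type and less RNA per cell cannot be told apart, and the part of cell composition in the members' levels was not tested.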

How the data were processed

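Per the file headers and the submitters' processing notes, the authors' deposited arrays hold intensity values from Agilent Feature Extraction 10.7, from which background and spatial trend were removed array by array, with no scaling across arrays. The authors' deposited series table holds log2 values whose normalization is not stated (column medians 6.31 to 6.34, a shared maximum of 19.1), and it served as an alternative. Control spots and outlier spots (57 to 84 per array) were left out, the 75th percentile was subtracted from log2 processed signals and spots of a probe were averaged. Of 41174 probes, 28158 well above background on at least 3 of 6 arrays were tested with limma 3.58.1 in R 4.3.3 (two-sided, Benjamini-Hochberg over all tested probes, threshold 0.05), with treatment as the only term; the fit was tested on simulated data. RefSeq identifiers gave 27484 probes 1 symbol, and 13690 are unnamed here. The array's annotation and the RefSeq tables follow different builds, so probe positions are not given, and the promoter positions are those of RefSeq.

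Replicate numbers are slide numbers. Deviations from group means correlated at 0.484, 0.614 and 0.585 within slides and at -0.568 to 0.0916 between them, so the samples are paired. Adjusted p-values of the limma fit with the slide as a replicate block are given beside some of the results, not all. Over the 18 member probes they ran from 0.139 to 0.991. The standard errors and intervals printed here are from fits without the block, which leave the pairing out. The spread behind each p-value is that among samples labelled as independent experiments. Members and lists were chosen with earlier results of these data known. The text names every member probe, the genes of each pathway list called with or without the block (otherwise the 3 of smallest p), and the 3 genes most correlated with the member of smallest p. Some genes that this rule selects are not reported here. The number of arrays limits the precision. Alternatives were normexp (offset 50, on median spot signals) with quantile normalization, quantile normalization, median centring, the authors' table, 2 filters, the block, trend with robust moderation, outlier spots kept, array weights, each array or slide 2 left out, a gene's probes averaged and each slide alone. A fit without slide 2 but with the block was added after seeing the data. Python 3.11.15 drew the figures.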

Additional observations from a re-analysis of the deposited data

How the results depend on the processing

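No alternative but array weights and the 2-slide fit with the block called a member: each of these called 1 member, Bcl2, through both of its probes. Of 14529 tested genes, these fits called 962 and 1587 as higher and 170 and 368 as lower in TSA. Bcl2 was below 0 by both probes, and Bid and all Bmf probes above 0, in all 18 alternative fits. The dimmer probe of the anti-apoptotic gene Mcl1 was also above 0 in all 18 (0.33 to 0.46). So were the dimmer probes of Bak1 (0.036 to 0.64) and Bcl2l11 (0.13 to 0.50). Bax was above 0 in all 18 too, but at 0.0016 without slide 2 and at -0.20 on slide 1 alone. Small differences changed sign: median centring gave Bak1 -0.015 and Mcl1 -0.037; array weights gave Bak1 -0.33, Pmaip1 0.25 and Bcl2l11 0.15; both arrays of slide 2 left out, with or without the block, gave Bak1 -0.29, Pmaip1 0.23 and Bcl2l11 0.042. Leaving out 1 array in turn gave ranges of -0.40 to 0.39 for Bak1, -0.88 to 0.36 for Pmaip1, -0.27 to 0.16 for Bcl2l11, -0.13 to 0.10 for Bbc3, -0.51 to 0.27 for Bcl2l1 and -0.019 to 0.19 for Mcl1. The gap between pro- and anti-apoptotic medians was 0.66 with array weights, 0.48 with slide 2 left out, again 0.48 there with the block, and 0.096 to 0.84 with 1 array left out.

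Of the pathway genes, 1 was called with normexp and quantile normalization, 1 with the replicate block, 4 with array weights and 11 in the 2-slide fit with the block, and 0 to 1 with 1 array left out. Of all tested genes 1.41% were called, 0.798% with normexp, 0.833% with quantile normalization, 0.736% with median centring, 0.833% in the authors' table, 0.213% with no filter, 3.34% with the replicate block, 7.79% with array weights, 0% with slide 2 left out, 13.5% there with the block, and 0% to 3.17% with 1 array left out. The highest of these came without TSA replicate 2; leaving out any other array gave 0 calls by limma, with 1376 to 2049 genes at an unadjusted p under 0.05, and 3009 such genes without slide 2. The cause was not tested. With all 6 arrays the block changed no call of a member, while without slide 2 it added Bcl2. The 3 arrays per group limit what could be called.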
